A study of Mus musculus with 4 samples.

Results

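The genes of hepatic zinc handling were followed in mouse liver, namely Mtf1, the metallothioneins Mt1 and Mt2, the exporters Slc30a1 and Slc30a10, and the importers Slc39a4, Slc39a5, Slc39a8, Slc39a10 and Slc39a14. They were chosen by name, as the metal-sensing transcription factor, its best known targets and the zinc transporters of hepatocytes, and all 10 were found among the 48709 genes of the count files. RNA from liver of untreated adult C57BL/6 mice was sequenced as 4 stranded mRNA libraries, 2 labelled WT and 2 labelled DDI2-KO. According to the study's methods, WT mice were littermates homozygous for a floxed Ddi2 allele (Ddi2 flox/flox) without Cre, and DDI2-KO mice carried the same floxed alleles with Cre driven by the albumin promoter, which is active in hepatocytes, so other liver cells of these mice keep the gene. Mice of both sexes were used in the study, and the sex of the mice behind each library is not given in the sources used here. Nothing in these sources pairs a WT with a DDI2-KO library.

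MTF1 is a zinc finger transcription factor that binds metal response elements when cellular zinc rises, and it drives the metallothionein genes and the exporter gene Slc30a1. Metallothioneins are small cysteine-rich proteins that bind zinc, copper and cadmium, and liver is one of their main sites of production. Transporters of the Slc30 family move zinc out of the cytosol, and those of the Slc39 family move zinc into it.

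Matches to the sequence that MTF1 binds were read before the start codons of the metallothionein genes. They are shown here because the largest differences among the 10 genes concern Mt1 and Mt2. Some of the matches lie inside the annotated genes, since the stretch read runs up to the start codon. Matches to the core of the metal response element (TGCACNC or TGCGCNC) and of the antioxidant response element (TGACNNNGC), which NRF1 and NRF2 bind, were counted on both strands, and matches on opposite strands may overlap. In the 300 bases before the start codon of Mt1 (chr8:94179011-94179310, GRCm38, plus strand) there were 5 metal cores and 1 antioxidant core. In the same stretch of Mt2 (chr8:94172548-94172847, plus strand) there were 5 metal cores and 0 antioxidant cores. Each site is printed from 5′ to 3′ on the strand that carries the match, from RefSeq and GENCODE sequence of GRCm38, with the core in capitals.
Mt1 metal core 1, plus strand, chr8:94179066-94179072: gtcccgctgTGCACACtggcgctcc
Mt1 metal core 2, plus strand, chr8:94179091-94179097: agggagctcTGCACTCcgcccgaaa
Mt1 metal core 3, plus strand, chr8:94179109-94179115: cccgaaaagTGCGCTCggctctgcc
Mt1 metal core 4, minus strand, chr8:94179173-94179179: caaagggttTGCACCCagcaggcgg
Mt1 metal core 5, plus strand, chr8:94179187-94179193: caaacccttTGCGCCCggactcgtc
Mt1 antioxidant core, plus strand, chr8:94179141-94179149: cggggcgcgTGACTATGCgtgggct
Mt2 metal core 1, minus strand, chr8:94172568-94172574: gacagagccTGCACACgccctcccc
Mt2 metal core 2, minus strand, chr8:94172622-94172628: ccctgggccTGCGCACgacccgaat
Mt2 metal core 3, minus strand, chr8:94172676-94172682: cccgccgccTGCACACgcccttttt
Mt2 metal core 4, minus strand, chr8:94172695-94172701: aaggcaccaTGCACGCgcccccgcc
Mt2 metal core 5, plus strand, chr8:94172729-94172735: cggagctttTGCGCTCgacccaata

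To set these matches against other genes, the same letters were counted in the RefSeq promoter windows of GRCm38.p6, each 250 bases before to 50 bases after an annotated start. At least 1 metal core occurred in 25.7% of the 32851 windows, at least 2 in 7.11%, at least 3 in 1.97% and at least 4 in 0.517%, while at least 1 antioxidant core occurred in 12.4% and at least 2 in 0.986%. Of the members, 8 had such a window, and Slc39a4 and Slc39a14 had none in the table used. The Mt2 window held 4 metal cores and 1 antioxidant core, and the Mt1 window 3 metal cores and 0 antioxidant cores, so which of these genes has the antioxidant core turned with the stretch that was read. Slc30a10 also had 3, in matches that overlap each other. Slc30a1, the other classical MTF1 target, had 2 metal cores and 1 antioxidant core, shown for comparison with the metallothioneins.
Slc30a1 metal core 1, minus strand, chr1:191906738-191906744: actttgcttTGCACTCggaaccccc
Slc30a1 metal core 2, minus strand, chr1:191906811-191906817: cgcggcgacTGCGCTCggcccggag
Slc30a1 antioxidant core, minus strand, chr1:191906699-191906707: acccgagcgTGACAAGGCcccggtg
The Mtf1 window and both Slc39a10 windows held neither core, and Slc39a5 and Slc39a8 had 1 metal core in 1 of 2 windows each. The other window of Slc39a5 held 2 antioxidant cores and that of Slc39a8 held 1. A match is a run of letters and not a shown binding site.

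Between 22501208 and 34109018 reads per library fell on genes, more in WT than in DDI2-KO, so that 3 counts, taken as the limit of detection, stood for 0.0880 to 0.133 CPM, the count relative to 1e6 reads on genes. Library sizes were scaled with edgeR's TMM factors and the genotypes compared with edgeR's quasi-likelihood test, adjusted by the Benjamini-Hochberg method across 13699 genes. The targeted gene, Ddi2, was at 132 ± 12.6 CPM in WT and 161 ± 5.09 CPM in DDI2-KO (SD, n = 2 each), a log2 fold change of 0.28 (edgeR, adjusted p = 0.349), so the whole-gene count does not show the deletion and genotypes are taken from the labels. Of the hepatocyte, Kupffer cell, stellate cell and bile duct marker genes, 6, 6, 6 and 5 were tested and 0 were called. Against 2.53% of all tested genes, 0 in lists this short says little. An unadjusted edgeR p under 0.05 was found for 0, 2, 2 and 1 of them, against 23.5% of all tested genes. All 6 stellate cell markers were below 0 (median log2 fold change -0.31), while 4 Kupffer cell markers were above and 2 below 0. Among 6 sinusoidal endothelial markers Stab2 fell (log2 fold change -1.10), but 3 were above and 3 below 0, with a median of -0.0004. Among 5 erythroid markers Hba-a1 fell (-1.94), and all 5 were below 0. For comparison with these signs, 7027 of all 13699 tested genes were below 0 and 6672 above. Summed CPM of the erythroid markers was 109 and 210 in WT and 79.3 and 68.3 in DDI2-KO. Of the stretches of 50 bases in Hba-a1, 72.3% also occur in Hba-a2, so the count of Hba-a1 is uncertain. In edgeR the Stab2 call was lost without WT library 1 (adjusted p = 0.109), and the Hba-a1 call without DDI2-KO library 1 (0.196) or library 2 (0.213). Of 7 pancreas acinar markers, 6 were at 0 in every library. The part of blood or endothelial content in the differences below was not tested, and in whole tissue fewer cells of a type and less RNA per cell cannot be told apart.

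Of the 10 members, Mt1 fell and Slc39a4 rose in the DDI2-KO libraries, and the other 8 did not pass the adjusted threshold of 0.05. For comparison, 2.53% of all tested genes were called, 1.33% higher and 1.20% lower. With 1 of 10 in each direction the count is too small to set the members apart from that share. An unadjusted p under 0.05 was found for 5 of the 10 members, against 23.5% of all tested genes. The groups did not overlap for 5 members, Mt1, Mt2, Slc30a10, Slc39a4 and Slc39a5, against 55.7% of all tested genes. Of these 5, 2 were higher and 3 lower, against 28.0% and 27.7% of all tested genes. The median log2 fold change was -0.01 over the members, 0.02 over the 8 members other than Mt1 and Mt2, and -0.01 over all tested genes.

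**Figure D1:**
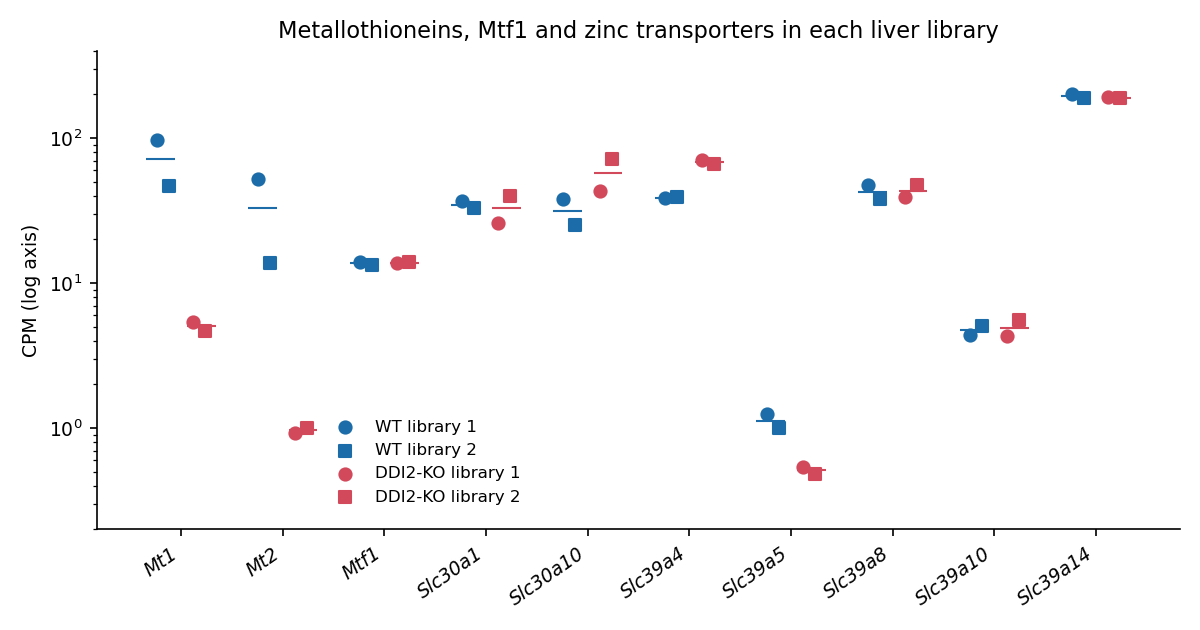
CPM of each member (log axis) in each of the 4 libraries, WT in blue and DDI2-KO in red, with circles for library 1, squares for library 2 and lines at the group means. Mt1 and Mt2 sit far lower in both DDI2-KO libraries, Slc39a4 sits higher, and the points of Mtf1 and Slc39a14 lie close together.

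Mtf1 (ENSMUSG00000028890, chr4:124802104-124849800, plus strand), the regulator itself, was counted with 470 and 414 reads in the WT libraries against 354 and 321 with DDI2-KO. These were 14.0 and 13.4 CPM in WT and 13.7 and 14.0 CPM in DDI2-KO, and the groups overlapped. The log2 fold change was 0.01 with a 95% interval of -0.38 to 0.41 (edgeR, adjusted p = 0.971), so a change of Mtf1 mRNA as large as that of Mt1 lies outside the interval. The counts say nothing of the amount or the activity of the protein. The opposite-strand gene 1110065P20Rik overlaps 8.10% of the Mtf1 exon bases.

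Mt1 (ENSMUSG00000031765, chr8:94179082-94180327, plus strand) was at 97.3 and 47.0 CPM in WT and at 5.41 and 4.66 CPM in DDI2-KO. Both DDI2-KO libraries were far below both WT libraries, and any WT library exceeded any DDI2-KO library by 8.68-fold to 20.9-fold. The log2 fold change was -3.84 (SE 0.39, 95% interval -4.78 to -2.90, edgeR, adjusted p = 0.0186). With either DDI2-KO library left out the difference had an adjusted p of 0.187 (without library 1) and 0.185 (without library 2) in edgeR, although the log2 fold change stayed between -4.27 and -3.22 over the 4 libraries left out.

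Mt2 (ENSMUSG00000031762, chr8:94172664-94173568, plus strand) was at 51.8 and 13.7 CPM in WT and at 0.927 and 1.00 CPM in DDI2-KO. The groups did not overlap, and a WT library exceeded a DDI2-KO library by 13.7-fold to 55.9-fold, but the WT libraries themselves differed more for Mt2 than for Mt1. The log2 fold change was -5.08 (SE 0.90, 95% interval -7.61 to -2.56), with an adjusted p of 0.0803 in edgeR. Over the 10 alternatives that kept every library its adjusted p ranged from 5.42e-06 (DESeq2) to 0.234 (edgeR without a filter), so the call depended on the method. With a library left out, the edgeR adjusted p was 0.435 without DDI2-KO library 1, 0.433 without DDI2-KO library 2, 4.66e-04 without WT library 1 and 2.74e-06 without WT library 2. The last 2 values come from fits with a single WT library, in which the spread between the WT libraries no longer enters, and their log2 fold changes were -3.82 and -5.74. An opposite-strand gene, Gm45774, overlaps 73.5% of the Mt2 exon bases but had 2, 1, 0 and 0 reads, and the strand setting of the counting is not given in the sources used here. The other metallothionein genes, Mt3 and Mt4, had 0 reads in every library, at or under the limit of detection.

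The balance of both metallothioneins differed between libraries. Mt1 had 1.88 reads per Mt2 read in WT library 1 (95% interval 1.77 to 1.99) and 3.42 in WT library 2 (3.07 to 3.82). In the DDI2-KO libraries it had 5.83 (3.76 to 9.41) and 4.65 (2.94 to 7.65), from exact binomial intervals that cover counting error only. Both DDI2-KO ratios were above both WT ratios, but the interval of WT library 2 overlapped the intervals of both DDI2-KO libraries. With 2 libraries in each group the smallest p of an exact permutation test is 0.333, so the ratio was not tested. Summed over both genes, metallothionein mRNA was 149 and 60.7 CPM in WT and 6.34 and 5.66 CPM in DDI2-KO.

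**Figure D2:**
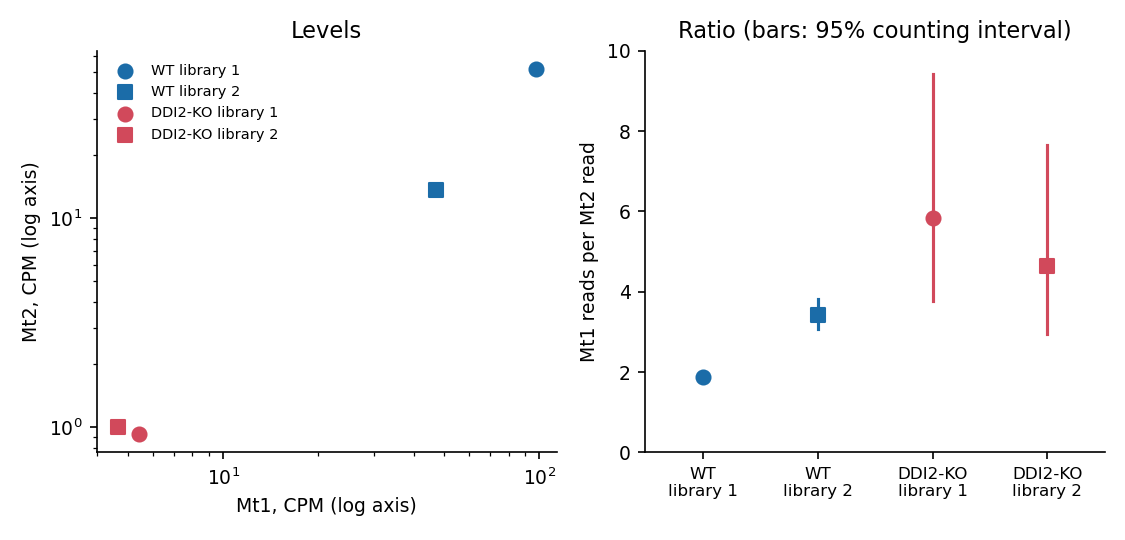
Left, Mt2 against Mt1 in CPM on log axes for each library. Right, Mt1 reads per Mt2 read in each library with 95% counting intervals, from 1.88 in WT library 1 to 5.83 in DDI2-KO library 1.

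The exporters were next compared. Slc30a1 (ENSMUSG00000037434, chr1:191906767-191913247, plus strand), the zinc exporter of the plasma membrane, was at 36.8 and 32.7 CPM in WT and at 26.0 and 39.6 CPM in DDI2-KO. The DDI2-KO libraries lay on either side of the WT libraries. The log2 fold change was -0.08 (95% interval -0.58 to 0.42, edgeR, adjusted p = 0.855), so a change of Slc30a1 as large as that of Mt1 lies outside the interval. Slc30a10 (ENSMUSG00000026614, chr1:185454848-185468762, plus strand), which mainly exports manganese, was at 38.0 and 25.0 CPM in WT and at 42.9 and 71.6 CPM in DDI2-KO. Its groups did not overlap, but the gap between both DDI2-KO libraries was wider than the gap between the groups. The log2 fold change of 0.86 (95% interval 0.16 to 1.57) had an adjusted p of 0.150 in edgeR and 0.0237 without adjustment.

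Of the importers, Slc39a4 (ENSMUSG00000063354, chr15:76612383-76617384, minus strand), the gene mutated in the zinc deficiency disease acrodermatitis enteropathica, was at 38.4 and 39.1 CPM in WT and at 70.8 and 66.4 CPM in DDI2-KO. Both groups were tight and did not overlap. Slc39a4 rose by a log2 fold change of 0.82 (SE 0.15, 95% interval 0.48 to 1.17, edgeR, adjusted p = 0.0404). Its adjusted p was 0.0536 under limma-voom, 0.0553 under limma-trend and 0.0529 without robust estimation in edgeR, and it was 0.195 without WT library 1 and 0.149 without WT library 2, while the log2 fold change ranged from 0.78 to 0.88 over the libraries left out.

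Slc39a5 (ENSMUSG00000039878, chr10:128395931-128401229, minus strand), an importer best known from intestine and pancreas, was counted with 42 and 31 reads in WT against 14 and 11 with DDI2-KO, or 1.25 and 1.00 CPM against 0.541 and 0.479 CPM. The groups did not overlap at this low level. Its log2 fold change of -1.14 (95% interval -2.08 to -0.19) had an adjusted p of 0.151 in edgeR.

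Slc39a8 (ENSMUSG00000053897, chr3:135825279-135888572, plus strand), an importer of zinc, manganese and cadmium, was at 47.4 and 38.1 CPM in WT and at 39.1 and 47.7 CPM in DDI2-KO, and the groups overlapped. The log2 fold change was 0.02 (95% interval -0.40 to 0.44, edgeR, adjusted p = 0.957). Slc39a10 (ENSMUSG00000025986, chr1:46807544-46892852, minus strand), an importer gene that MTF1 represses when zinc is high, was at 4.40 and 5.05 CPM in WT and at 4.29 and 5.57 CPM in DDI2-KO. The groups overlapped, with a log2 fold change of 0.06 (95% interval -0.50 to 0.62, edgeR, adjusted p = 0.911). Slc39a14 (ENSMUSG00000022094, chr14:70303469-70351425, minus strand), the liver importer of zinc, iron and manganese that acute inflammation induces, was at 201 and 190 CPM in WT and at 191 and 188 CPM in DDI2-KO. Its groups overlapped as well, with a log2 fold change of -0.04 (95% interval -0.42 to 0.34, edgeR, adjusted p = 0.911).

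Levels of different genes were compared as CPM per kilobase of merged exons, so their order depends on that length. Merged exons of Slc39a14 span 10550 bases and its longest transcript 5117. For Slc39a8 these lengths were 7664 and 4212, and for Slc39a4 3106 and 2750. The order by longest transcript was not computed. In WT liver Mt1 (57.9 ± 28.6 CPM per kilobase, SD, n = 2) and Mt2 (55.8 ± 45.8) led, and their libraries overlapped. They were followed by Slc39a14 (18.5), Slc39a4 (12.5), Slc30a1 (6.63), Slc39a8 (5.57), Slc30a10 (5.40), Mtf1 (1.54), Slc39a10 (0.775) and Slc39a5 (0.506). Of these neighbours, Slc39a8 and Slc30a10 overlapped between libraries. In DDI2-KO liver the order of mean CPM per kilobase began with Slc39a4 (22.1) and Slc39a14 (18.0), and Slc30a10 (9.81), Slc30a1 (6.26) and Slc39a8 (5.66) came next with overlap between neighbours. Mt1 (4.04) was then at rank 6 and Mt2 (1.64) at rank 7, ahead of Mtf1 (1.55), Slc39a10 (0.809) and Slc39a5 (0.229). These ranks were the same with RLE factors, upper-quartile factors and library totals. Such factors scale all genes of a library alike, so this does little to test the order, and gene length was not varied.

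Whether other zinc-responsive genes followed Mt1 and Mt2 was asked with a list of 11 genes known to respond to zinc or MTF1. Of these, 9 were tested and 0 were called in either direction by edgeR, while DESeq2 called 1. Since edgeR called 2.53% of all tested genes, 0 of 9 says little. An unadjusted edgeR p under 0.05 was found for 1 of them, or 11.1% against 23.5% of all tested genes. Their median log2 fold change was 0.05, with a range of -0.35 to 0.66. The 95% intervals of all 9 lay above the interval of Mt1. The lowest belonged to Afp, the fetal albumin gene, at -0.35 (95% interval -1.16 to 0.46). The highest was that of Cebpa, a transcription factor of hepatocytes, at 126 and 119 CPM in WT and 226 and 163 CPM in DDI2-KO. Its log2 fold change of 0.66 (95% interval 0.20 to 1.12) had an adjusted p of 0.105 in edgeR, and 0.0424 under DESeq2.

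The remaining genes of this list did not pass the threshold either. Hamp, which encodes the iron hormone hepcidin, was at 565 and 1494 CPM in WT and 1452 and 1421 CPM in DDI2-KO, and its log2 fold change of 0.48 went from -0.05 without WT library 1 to 1.35 without WT library 2 (edgeR, adjusted p = 0.0194). Gclc, the catalytic subunit of glutathione synthesis and an MTF1 target, was at 377 and 388 CPM in WT and 228 and 493 CPM in DDI2-KO, a log2 fold change of -0.09 (95% interval -0.90 to 0.73). The iron exporter gene Slc40a1 had a log2 fold change of 0.40, Ndrg1 0.30, Selenow 0.05, Zng1 0.00 and Csrp1 -0.08. Slc30a2 had 0 reads in every library, and Pgf had too few reads to be tested.

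**Figure D3:**
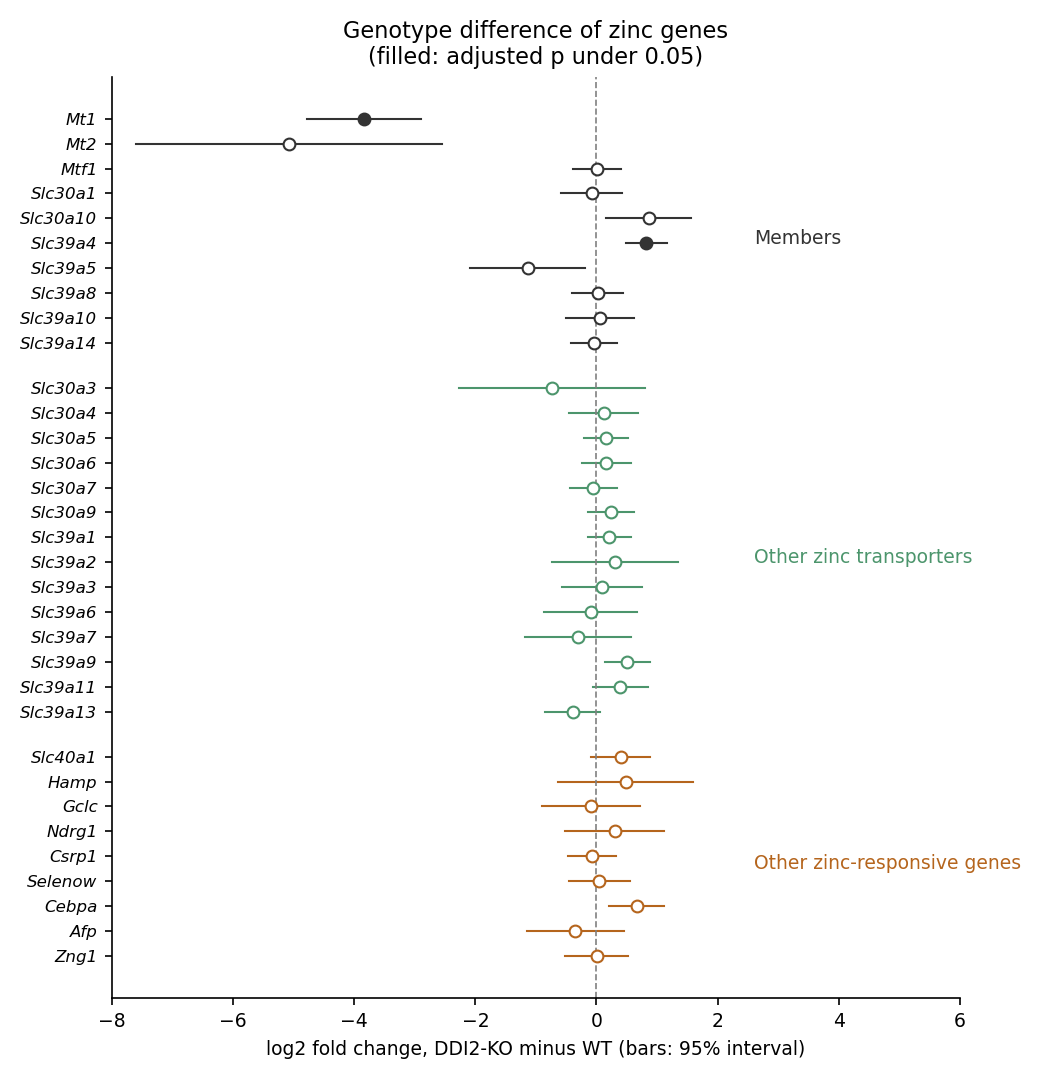
Log2 fold change (DDI2-KO minus WT) with 95% intervals for the members, 14 other zinc transporters and 9 other zinc-responsive genes, filled where the adjusted p is under 0.05. Mt1 at -3.84 and Mt2 at -5.08 stand apart from all others, which lie between -1.14 and 0.86.

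From the rest of the zinc transporter families 17 genes were listed, of which 14 were tested and 0 were called by edgeR. Beside 2.53% of all tested genes called, 0 of 14 says little. An unadjusted edgeR p under 0.05 was found for 1 of them (Slc39a9, the importer of the Golgi and plasma membrane), or 7.14% against 23.5% of all tested genes. The median log2 fold change was 0.14, from -0.73 for Slc30a3 to 0.51 for Slc39a9, which was at 60.6 and 51.2 CPM in WT and 79.5 and 79.2 CPM in DDI2-KO (edgeR, adjusted p = 0.118). Slc30a3 had only 4 to 25 reads, and its log2 fold change ran from -1.98 without DDI2-KO library 2 to -0.03 without DDI2-KO library 1. Among the exporters, Slc30a4 was at a log2 fold change of 0.12, Slc30a5 at 0.16, Slc30a6 at 0.16, Slc30a7 at -0.05 and Slc30a9 at 0.24. Among the importers, Slc39a1 was at 0.21, Slc39a2 at 0.30, Slc39a3 at 0.10, Slc39a6 at -0.10, Slc39a7 at -0.30, Slc39a11 at 0.39 and Slc39a13 at -0.40. Of the stretches of 50 bases in Slc39a7, 74.5% also occur in Gm20427, and of those in Slc39a1 21.8% in Slc39a1-ps, so both counts are uncertain.

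Genes of factors that act at metallothionein promoters were listed too, namely Nfe2l1, Nfe2l2, Mafg, Maff, Mafk, Nr3c1, Stat3, Usf1, Usf2, Sp1 and the coactivator gene Ep300. All 11 were tested and 0 were called by edgeR, which says little beside 2.53% of all tested genes called. An unadjusted edgeR p under 0.05 was found for 1 of them (Ep300, -0.41), or 9.09% against 23.5% of all tested genes. Their median log2 fold change was -0.10. Of 10 glucocorticoid-responsive genes, listed because glucocorticoids induce metallothioneins, Per1 fell (-1.27) and Dusp1 rose (2.14), each with an adjusted p of 0.0438 in edgeR. With 1 of 10 in each direction the count is too small to set the list apart from the 2.53% of all tested genes. An unadjusted p under 0.05 was found for 30.0% of the list, against 23.5% of all tested genes. The Per1 call was lost under limma-voom (adjusted p = 0.0591), limma-trend (0.0607), edgeR without robust estimation (0.0581) and without WT library 1 (0.155), WT library 2 (0.0839) or DDI2-KO library 1 (0.0689). The Dusp1 call was lost in edgeR without WT library 2 (adjusted p = 0.0623). Of 10 acute-phase genes and 6 tested genes induced by cadmium or oxidants, 0 were called. Against 2.53% of all tested genes, 0 in lists this short says little. Their medians were 0.18 and 0.15, and 9 of the 10 and 5 of the 6 were above 0. Of all 13699 tested genes, 6672 were above 0 and 7027 below. Whether these lists shifted as a set was not tested.

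The neighbours of the metallothionein genes on chromosome 8 were read for a regional difference. Within 500 kb, 17 genes were tested, of which 13 were protein-coding genes other than Mt1 and Mt2. Their log2 fold changes ran from -0.73 to 0.66 with a median of 0.15, and 0 were called by edgeR. With 2.53% of all tested genes called, 0 of 13 says little. The long noncoding gene 9330175E14Rik fell, from 88 and 96 reads in WT to 24 and 22 in DDI2-KO (log2 fold change -1.60, edgeR, adjusted p = 0.0467). This call was lost under limma-voom (adjusted p = 0.0646), limma-trend (0.0585), edgeR without robust estimation (0.0581) and with any 1 library left out (0.0610 to 0.152). A further long noncoding gene, Gm15889, had 45 and 83 reads in WT against 9 and 15 with DDI2-KO, and the groups did not overlap (log2 fold change -2.01, edgeR, adjusted p = 0.0725).

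**Figure D4:**
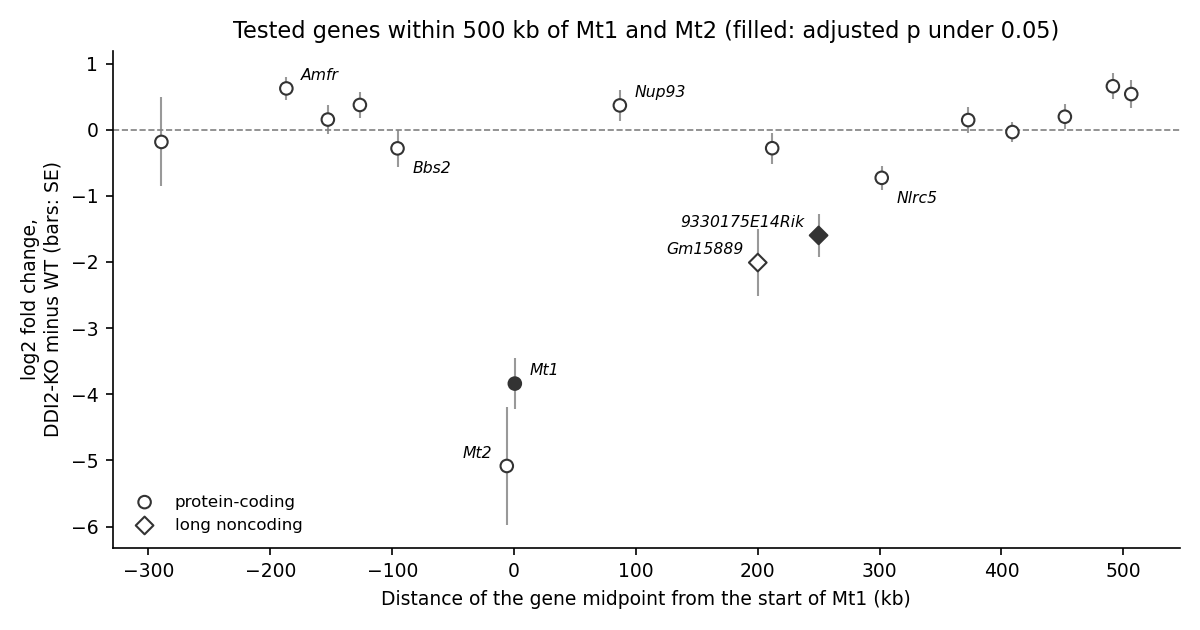
Log2 fold change (DDI2-KO minus WT, bars show SE) of the 17 tested genes against the distance of each gene's midpoint from the start of Mt1 in kb, circles for protein-coding and diamonds for long noncoding genes. Mt1 and 9330175E14Rik are filled (adjusted p under 0.05), and the protein-coding neighbours lie between -0.73 and 0.66.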

How the data were processed

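Liver mRNA libraries (2 WT, 2 DDI2-KO) were analysed from the gene counts that the authors deposited, whole-number read counts per Ensembl gene without normalization. The submitters' processing notes name cutadapt 1.8, STAR 2.5.2b, HTSeq 0.6.1 and GRCm38. The annotation release and strand setting of the counting are not given in the sources used here. Summary lines were kept out of library sizes. They came to 2.53% to 5.11% (no feature), 2.50% to 3.66% (ambiguous) and 47.3% to 65.8% (not unique) of the reads on genes. Symbols and coordinates are from GENCODE vM21 (48349 of 48709 identifiers), and the hepatocyte marker Tf was not matched.

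In R 4.3.3, edgeR 4.0.16 was run with TMM, filterByExpr, glmQLFit with robust estimation and glmQLFTest, without a block, with Benjamini-Hochberg adjustment over 13699 genes. The study used limma, which was run as an alternative (limma 3.58.1, voom and trend), beside DESeq2 1.42.0, other factors, other filters, no robust estimation, a replicate block and each library left out. No library appears to be deposited under both numbers of a group, since counts differed beyond sampling noise (chi-square over its degrees of freedom was 64.7 in WT, 34.8 in DDI2-KO), which does not show that the libraries come from separate mice. P-values measure the spread between these libraries only. Intervals of read ratios cover counting error only, since PCR copies were not told apart.

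The members and gene lists were chosen with earlier results of these data known. Named are all members, each tested gene of the zinc-responsive and transporter lists, called genes of the other lists, Ddi2 and the 5 genes whose centred log2 CPM lay nearest to the mean of Mt1 and Mt2. 9330175E14Rik, Gm15889, Ep300 and the other genes outside this rule were named after their values were seen.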

Additional observations from a re-analysis of the deposited data

How the results depend on the processing

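Each group held 2 libraries. The main comparison called 346 genes, 182 higher and 164 lower. The counts were 940, 511 and 429 under DESeq2, 136, 72 and 64 under limma-voom, 139, 74 and 65 under limma-trend, 1544, 792 and 752 without a filter on low counts, and 152, 75 and 77 without robust estimation. With a replicate block they were 1108, 553 and 555. Under the block the adjusted p was 0.0185 for Mt2 and 0.0611 for Dusp1. Nothing in the sources used here pairs the libraries by replicate number. The correlation of same-numbered deviations was 0.0588, and 1 correlation from 2 libraries in each group cannot show that no pairing exists. The cause of the higher counts under the block was not tested. Upper-quartile factors gave 126 higher and 191 lower, and library totals 230 and 148. Leaving out 1 library, 153 to 631 genes were called, 75 to 294 higher and 78 to 337 lower.

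Of the members, 2 were called in the main comparison, 1 under limma-voom, and 1 to 2 with a library left out. Higher members numbered 0 under limma-voom, limma-trend and without robust estimation (left out, 0 to 1), and lower members 2 under DESeq2, limma-trend, without robust estimation and with the block (left out, 0 to 2). Of the other zinc-responsive genes, 1 was called under DESeq2 and without a filter (left out, 0 to 1), against 0. Mt1 was called under all 10 alternatives that kept every library.

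Values near 0 changed sign. With upper-quartile factors Mtf1 was at -0.039, Slc39a8 at -0.031, Selenow at -0.0021 and Zng1 at -0.052. With a mean of at least 1 CPM Mtf1 was at -0.0048 and Zng1 at -0.017, and with library totals Slc39a14 was at 0.0080. Leaving out 1 library gave log2 fold changes of -0.016 to 0.047 for Mtf1, -0.41 to 0.19 for Slc30a1, -0.13 to 0.19 for Slc39a8, -0.13 to 0.24 for Slc39a10, -0.080 to 0.0026 for Slc39a14, -0.27 to 0.43 for Slc30a4, -0.17 to 0.072 for Slc30a7, -0.12 to 0.66 for Slc39a2, -0.36 to 0.45 for Slc39a3, -0.51 to 0.24 for Slc39a6, -0.055 to 1.35 for Hamp, -0.74 to 0.37 for Gclc, -0.13 to 0.92 for Ndrg1, -0.21 to 0.051 for Csrp1, -0.22 to 0.29 for Selenow and -0.16 to 0.19 for Zng1. Slc39a5 was not tested with a mean of at least 1 CPM.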

Other observations

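The genes whose profile over the 4 libraries lay nearest to the mean of Mt1 and Mt2, by Euclidean distance of centred log2 CPM among 13697 genes, were mostly noncoding. Gm45540 was nearest, at a distance of 0.890 from that mean, at 116 and 51 reads (WT) against 4 and 4 (DDI2-KO). Mt1 and Mt2 were 1.16 from each other, which is a distance between 2 genes and not from their mean. These 2 distances are therefore not comparable, and the distance of Gm45540 to each metallothionein gene was not computed. Gm45540 is annotated as a gene still to be experimentally tested (TEC). Gm45540 was followed by the pseudogenes Gm7463 (1.46) and Gm7652 (1.64), the long noncoding gene Gm28151 (1.65) and Gm16348 (1.71). Gm28151 lies in an intron of Slc39a10 on the same strand and shares 0 exon bases with it. Its counts were 16 and 16 reads (WT) against 0 and 0 (DDI2-KO), at least 4.03-fold lower against a floor of 3 counts per library, while Slc39a10 itself had a log2 fold change of 0.06. Among 12717 protein-coding genes alone, a choice made after seeing the data, the nearest were Fam19a2 (1.78), Cyp2c54 (1.90), Fmn1 (2.10), Dpf1 (2.11) and Serpina1e (2.16). Distances over 4 libraries are descriptions.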
